A study of Mus musculus with 10 samples.

Results

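The 3 genes described here, of 38293 gene identifiers counted in the series, are Ssrp1 and Supt16, which encode the subunits of the histone chaperone FACT, and P2rx3, which lies beside Ssrp1 on the other strand. They were chosen by name, with earlier results of these data known. RNA-seq of total RNA was available for 10 mouse libraries. Wild-type mouse embryonic fibroblasts (MEF) from C57BL/6J mice were left untreated (2 libraries) or received 1 µM CBL0137 for 24 hr (2 libraries). MEF from Trp53tm1Tyj mice, which lack functional p53 (p53-/-), were untreated or received the same treatment, with 1 library each and so no replicate. Whole lungs came from NIH Swiss mice 7 weeks old, wild type for p53, 24 hr after 1 intravenous dose of dextrose vehicle (2 libraries) or 60 mg/kg CBL0137 (2 libraries). The drug was dissolved in DMSO for cells, while the control cells were labelled only as untreated. The sex of the lung donors is given in 2 ways in the labels and was not used. Tissue cannot be told apart from strain, dose and route.

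FACT loosens nucleosomes ahead of RNA and DNA polymerases and restores them behind. Ssrp1 is the subunit with an HMG-box that binds DNA, and Supt16 is the larger subunit, which binds histones H2A and H2B. CBL0137 is a small molecule of the curaxin class that binds DNA, loosens DNA from histones and traps FACT on chromatin. P2rx3 encodes an ATP-gated cation channel known mainly from sensory neurons.

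On GRCm38, Ssrp1 (ENSMUSG00000027067) occupies chr2:85037234-85047109 on the forward strand and P2rx3 (ENSMUSG00000027071) chr2:84998583-85037462 on the reverse strand. The 5′ ends of the genes therefore overlap, and each gene starts inside the other. In the GENCODE M21 annotation the exons of these genes share 51 bases, in stretches of 39 bases (chr2:85037290-85037328) and 12 bases (chr2:85037451-85037462). Both stretches are noncoding in both genes and belong to a single P2rx3 transcript. The window around the Ssrp1 start, from RefSeq (GRCm38.p6, chr2:85037201-85037500, forward strand), is shown because it holds every base of exon that the pair shares, in capitals.
Ssrp1 start-site window: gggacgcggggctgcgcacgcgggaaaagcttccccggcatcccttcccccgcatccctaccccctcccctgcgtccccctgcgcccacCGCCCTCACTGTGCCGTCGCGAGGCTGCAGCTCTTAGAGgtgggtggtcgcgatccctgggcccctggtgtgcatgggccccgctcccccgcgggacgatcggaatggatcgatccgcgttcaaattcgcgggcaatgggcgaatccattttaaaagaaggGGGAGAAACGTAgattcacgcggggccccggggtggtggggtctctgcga
Supt16 (ENSMUSG00000035726) lies at chr14:52160414-52197416 on the reverse strand. Its 3′ end runs into Rpgrip1 (ENSMUSG00000057132, chr14:52110704-52163546, forward strand), which encodes a ciliary protein known from photoreceptors. Those genes share 1057 exon bases. Of these, 986 (chr14:52160414-52161399) are in the 3′ end of Supt16 and noncoding in both genes. The other 71 (chr14:52163243-52163313) code for protein in Supt16 and belong to 1 Rpgrip1 transcript. The Supt16 exon with those 71 bases, number 24 of 26 (chr14:52163184-52163313, reverse strand, GENCODE M21 transcript sequence), is shown because its capitals are coding bases of Supt16 that are also exon of the gene on the other strand.
Supt16 coding exon: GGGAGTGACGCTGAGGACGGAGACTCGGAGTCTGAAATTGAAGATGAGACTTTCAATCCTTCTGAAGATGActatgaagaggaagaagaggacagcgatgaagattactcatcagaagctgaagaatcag

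**Figure D1:**
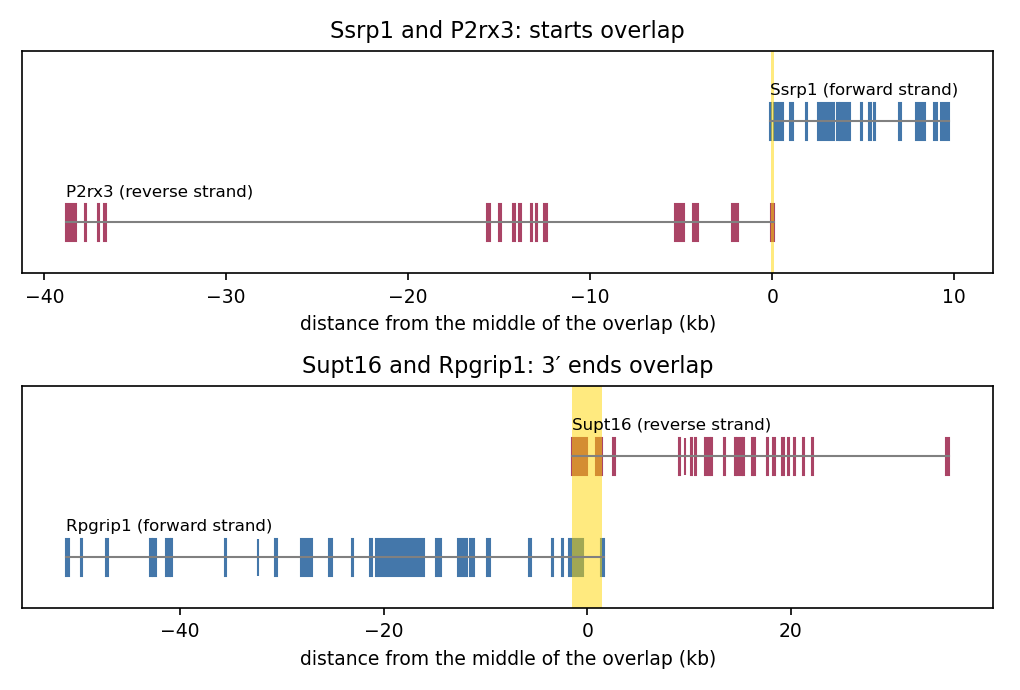
Exons (boxes, union over transcripts) of Ssrp1 and P2rx3 (top) and of Supt16 and Rpgrip1 (bottom) against distance in kb from the middle of the overlap, blue for the forward and red for the reverse strand. The yellow band runs from the first to the last shared exon base and is narrow at Ssrp1, where 51 exon bases are shared, and wider at Supt16, where 1057 are shared.

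Depth on genes was low in every library. The files held 1458258 to 51320983 reads per library, of which 0.789% to 1.16% were assigned to a gene, which left 16579 to 538717 gene counts. Levels are given below as counts per 1000000 gene counts (CPM). A count of 0 still allows a share of up to 3 counts, which was 5.57 CPM in the deepest library and 181 CPM in the shallowest (vehicle lung replicate 2), and values of 1 to 3 counts are too few to rank libraries. Summed markers of lung epithelium and endothelium gave 458 to 784 CPM in the lungs and at most 33.4 CPM in MEF, and fibroblast markers gave 278 to 860 CPM in MEF and 53.3 to 241 CPM in lung. Both upper lung values came from vehicle lung replicate 2, where 1 count equals 60.3 CPM. Of the 601 fibroblast marker counts, 188 were on Fbn1, which shares 2442 exon bases with Gm9913 on the other strand. Dcn, Pdgfrb and Thy1 had 1, 3 and 4. Trp53 had 0 counts in the untreated p53-/- library and 5 in the treated one, the deepest of the series, against 1 in the 8 wild-type libraries together. Gene counts do not tell which exons these came from, so they do not check the p53-/- label. In whole lung, fewer cells of a type and less RNA per cell cannot be told apart.

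Ssrp1 had 33 counts in all and was seen in 8 of 10 libraries. It had 5 and 1 counts in the untreated wild-type MEF (36.5 and 5.21 CPM), 0 and 2 in the CBL0137-treated wild-type MEF (0 and 7.29 CPM), 4 in the untreated p53-/- MEF (23.2 CPM) and 7 in the treated p53-/- MEF (13.0 CPM). In lung it had 9 and 0 counts with vehicle (44.8 and 0 CPM) and 1 and 4 with CBL0137 (5.52 and 16.4 CPM). The treated and control values overlapped in wild-type MEF and in lung, and the 0 of vehicle lung replicate 2 came from the library in which 1 count equals 60.3 CPM.

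Supt16 had 37 counts, also in 8 libraries. Its counts in wild-type MEF were 3 and 8 without the drug (21.9 and 41.7 CPM) and 2 and 4 with it (29.6 and 14.6 CPM), and it had 4 in each p53-/- library (23.2 CPM untreated and 7.43 CPM treated). In lung they were 7 and 0 with vehicle (34.9 and 0 CPM) and 0 and 5 with CBL0137 (0 and 20.5 CPM). Treated and control values again overlapped in both replicated settings.

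P2rx3 had 5 counts, in 3 libraries. These were 1 count in CBL0137 wild-type MEF replicate 2 (3.65 CPM), 2 in the untreated p53-/- MEF (11.6 CPM) and 2 in CBL0137 lung replicate 1 (11.05 CPM). The other 7 libraries had none, which over the vehicle lungs together allows up to 13.8 CPM and over the untreated wild-type MEF up to 9.12 CPM (3 counts, counting error only). The sensory neuron markers reported here had 4 counts over all libraries, with Trpv1, Scn10a, Scn9a, Pou4f1 and Mrgprd at 0 in every library.

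**Figure D2:**
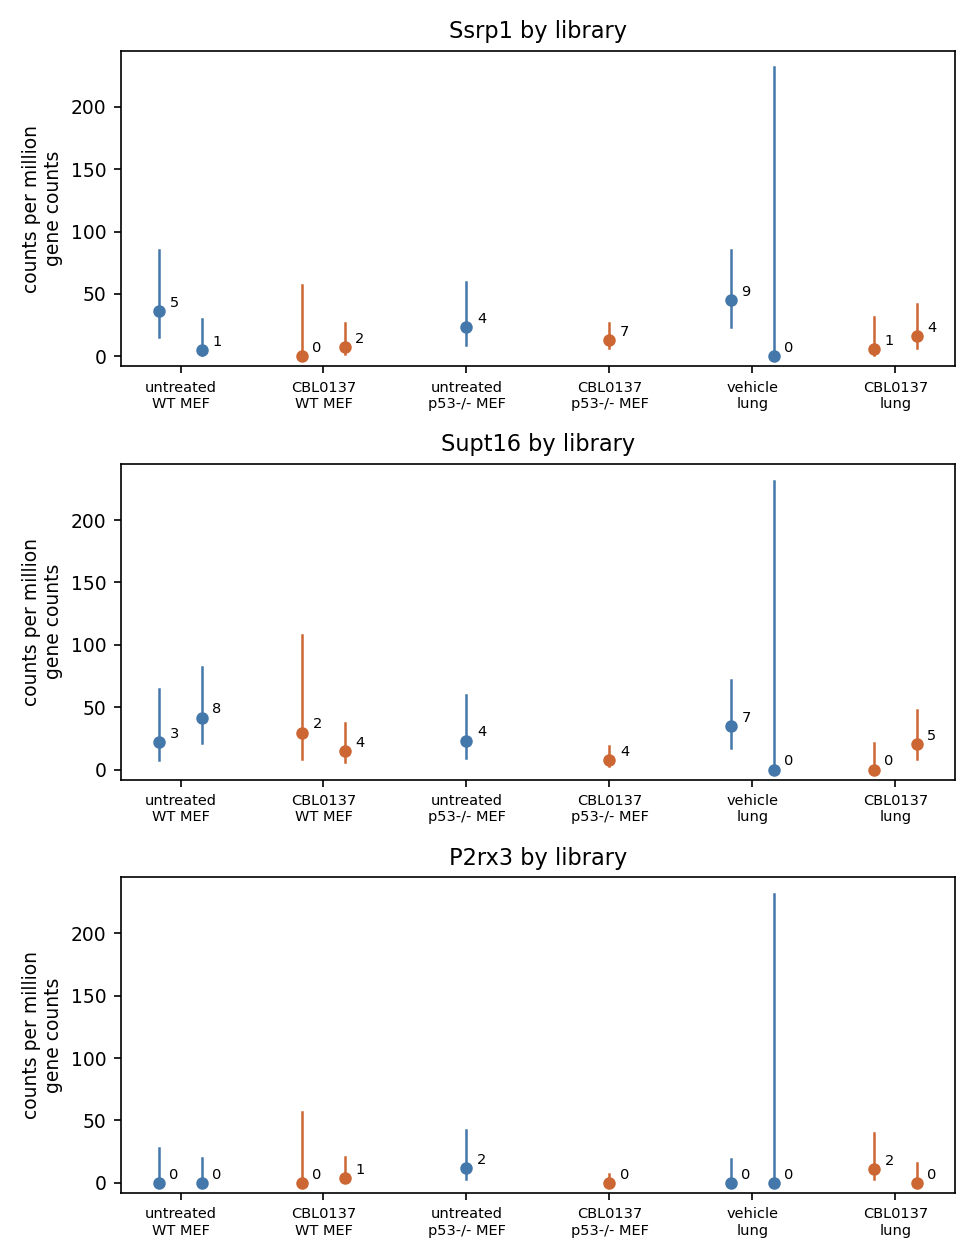
CPM (counts per 1000000 gene counts) of Ssrp1, Supt16 and P2rx3 in each of 10 libraries, blue for untreated or vehicle and orange for CBL0137, with the count beside each point and lines for the 95% Wilson interval (counting error only). The intervals of treated and control libraries overlapped widely for Ssrp1 and Supt16, and P2rx3 was at 0 in 7 of 10 libraries.

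The rule for these genes asked how P2rx3 stood against Ssrp1 within a library. P2rx3 made up 5 of the 38 counts on the pair, 13.2% (exact Clopper-Pearson interval 4.41% to 28.1%). The strand setting of the counting is not known here either, so these are shares of counts and may not be shares of transcripts. Per kb of exon, P2rx3 had 1.79 counts and Ssrp1 8.83, which put P2rx3 at 16.9% of the pair. The P2rx3 count was below the Ssrp1 count in 7 of the 8 libraries in which either gene was seen, and above it in CBL0137 lung replicate 1, with 2 against 1. Even in vehicle lung replicate 1, the library with the most counts on the pair (9, all on Ssrp1), the exact interval of the P2rx3 share reached 33.6%.

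No drug effect on the members could be shown with so few counts. None of the 3 genes passed the filter on low counts in the edgeR quasi-likelihood fit of any comparison, so 0 of 3 were tested, where 8.48% of 1757 tested genes were called for CBL0137 in wild-type MEF (Benjamini-Hochberg adjusted p below 0.05) and 0% of 2377 in lung. In lung, edgeR had 74 genes at an unadjusted p below 0.05 and DESeq2 also called 0. Without the filter, edgeR gave Ssrp1 a log2 fold change of -1.59 (SE 1.41) in wild-type MEF with an adjusted p of 0.774 and of -1.57 (SE 1.07) in lung with an adjusted p of 0.893. For Supt16 the same edgeR fits gave -0.81 (SE 0.96, adjusted p 0.774) and -1.27 (SE 1.12, adjusted p 0.893).

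Ratios of summed CPM, treated to control, carried wide exact intervals from counting alone. For Ssrp1 the ratio was 0.321 (0.0317 to 1.79) in wild-type MEF, 0.560 (0.142 to 2.61) in p53-/- MEF and 0.284 (0.0748 to 0.944) in lung. The lung interval excludes 1, but 9 of the 14 lung counts came from vehicle lung replicate 1. For Supt16 the ratios were 0.525 (0.159 to 1.55), 0.320 (0.0596 to 1.72) and 0.365 (0.0914 to 1.34). All 6 ratios of the FACT subunits were below 1, and only the interval of Ssrp1 in lung excluded 1. Both subunits were counted in the same libraries, and the share of all genes with ratios below 1 was not computed. P2rx3 had no fold, since it was at 0 in the control or in the treated group of each setting.

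Over all 10 libraries, with treatment labels permuted within wild-type MEF, p53-/- MEF and lung, the mean difference in log2 share (pseudocount 0.5) was -1.21 for Ssrp1 (two-sided exact permutation p = 0.0556), -1.39 for Supt16 (exact permutation p = 0.0833) and -1.21 for P2rx3 (exact permutation p = 0.583). The smallest p that the 72 arrangements allow is 0.0278, and the Benjamini-Hochberg values over the 8 permutation tests made were 0.148, 0.167 and 0.718. A fixed pseudocount lifts the 0 of the shallow vehicle lung replicate 2, and with a pseudocount scaled to the library the differences were -0.79 for Ssrp1 (exact permutation p = 0.417), -0.74 for Supt16 (exact permutation p = 0.361) and -0.21 for P2rx3 (exact permutation p = 1).

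The tissues did not separate by the members either. The 4 lung libraries averaged 16.7 ± 19.96 CPM of Ssrp1 (SD, n = 4) against 12.2 ± 16.4 CPM in the 4 wild-type MEF libraries, a difference of 4.45 CPM (two-sided exact permutation p = 0.629, smallest possible 0.0286). Supt16 averaged 13.8 ± 17.0 CPM in lung and 26.9 ± 11.6 CPM in wild-type MEF (difference -13.1 CPM, exact permutation p = 0.229). P2rx3 averaged 2.76 ± 5.52 CPM in lung and 0.911 ± 1.82 CPM in wild-type MEF (difference 1.85 CPM, exact permutation p = 1). In each case the ranges of the tissues overlapped.

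Supt16 was far below the gene on its other strand. Rpgrip1 had 2917 counts, rank 91 of all genes, and took 98.7% of the counts on the pair. The counts of Rpgrip1 were 228 and 333 in untreated wild-type MEF (1662 and 1735 CPM), 80 and 366 in treated wild-type MEF (1184 and 1334 CPM), 362 in untreated p53-/- MEF (2100 CPM) and 1036 in treated p53-/- MEF (1923 CPM). In lung they were 178 and 16 with vehicle (887 and 965 CPM) and 103 and 215 with CBL0137 (569 and 882 CPM). Supt16 was lower than its opposite gene in every library, whereas Ssrp1 was lower than P2rx3 in 1. Per kb of exon, Rpgrip1 had 240.0 counts and Supt16 7.34. Of 10 photoreceptor genes listed after this count was seen, Sag had 266 counts and Pde6b 97, while Crx, Gnat1 and Rcvrn had 0. The strand setting of the counting is not given in the sources used here, so the strand that the reads on either gene came from cannot be told apart.

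**Figure D3:**
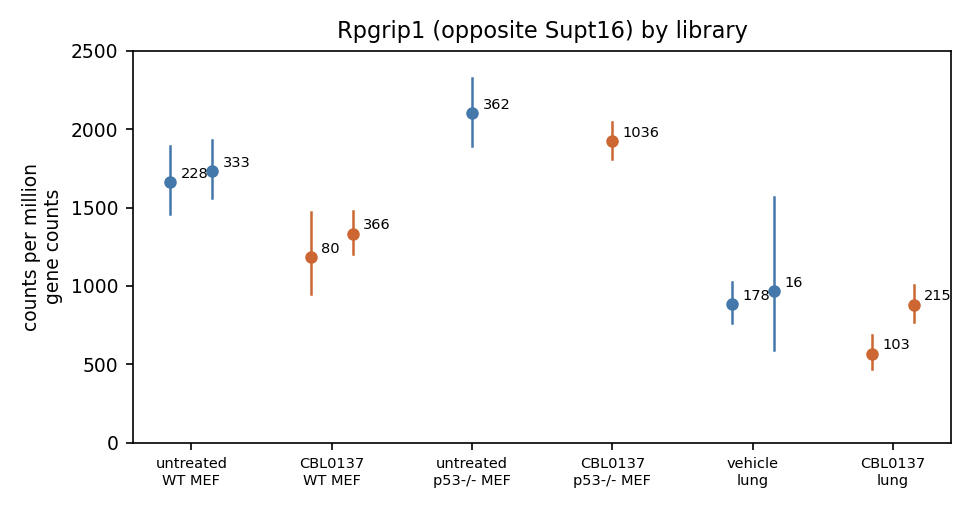
CPM (counts per 1000000 gene counts) of Rpgrip1, which overlaps Supt16 on the other strand, in each of 10 libraries, with counts beside the points and 95% Wilson intervals (counting error only), blue for untreated or vehicle and orange for CBL0137. Lungs lay at 569 to 965 CPM and all MEF at 1184 CPM or above.

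Of the members and the genes opposite them, Rpgrip1 alone passed the filter on low counts. The lung values of Rpgrip1 all lay below the wild-type MEF values (difference -653 CPM, two-sided exact permutation p = 0.0286, the smallest possible, Benjamini-Hochberg value 0.114). In edgeR vehicle lung was lower than untreated wild-type MEF (log2 fold change -1.003, SE 0.22, adjusted p 0.00056), where 38.2% of 1852 tested genes were called. That edgeR call was lost with all reads as library size (-0.66, adjusted p 0.169), without the filter (adjusted p 0.104) and without vehicle lung replicate 1 (adjusted p 0.0906). With CBL0137 the log2 fold change of Rpgrip1 was -0.52 (SE 0.16, edgeR adjusted p 0.0998) in wild-type MEF and -0.20 (SE 0.36, edgeR adjusted p 1.00) in lung. The treated wild-type MEF were both below the untreated ones, and the share of all genes that separate in this way was not computed. Summed fibroblast markers were also lower in the treated wild-type MEF, at 310 to 340 CPM against 540 to 860 CPM. Their part in the Rpgrip1 values was not tested. The drug response of Rpgrip1 differed between p53-/- and wild-type MEF by 0.42 on the log2 scale (interaction term, edgeR adjusted p 0.721, background 0.1% of 2995 genes called) and between lung and wild-type MEF by 0.32 (interaction term, edgeR adjusted p 0.939, background 0.276% of 2899). The change over strata of -0.32 had the smallest possible exact permutation p, 0.0278, a Benjamini-Hochberg value of 0.114, and p = 0.417 when all reads were the denominator.

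Over all protein-coding genes, counts were higher where more exon was shared with a gene on the other strand. The median count over 10 libraries was 2 for the 15989 genes that share none, 9 with 1 to 100 shared bases, 11 with up to 500, 23 with up to 1000 and 72 for the 694 genes with over 1000. The share of genes with at least 100 counts went from 2.98% to 43.7% over the same classes. This is a description across genes, which also differ in length, and it has no test. Per kb of exon, the median was 0.464 counts for the 15989 coding genes that share none and 2.99 for the 5184 that share any. Ssrp1 (33) was above the upper quartile of its class (29) and P2rx3 (5) below its median, whereas Supt16 (37) was below the median of the class with over 1000 shared bases and Rpgrip1 among the 3.03% of that class at its count or above.

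**Figure D4:**
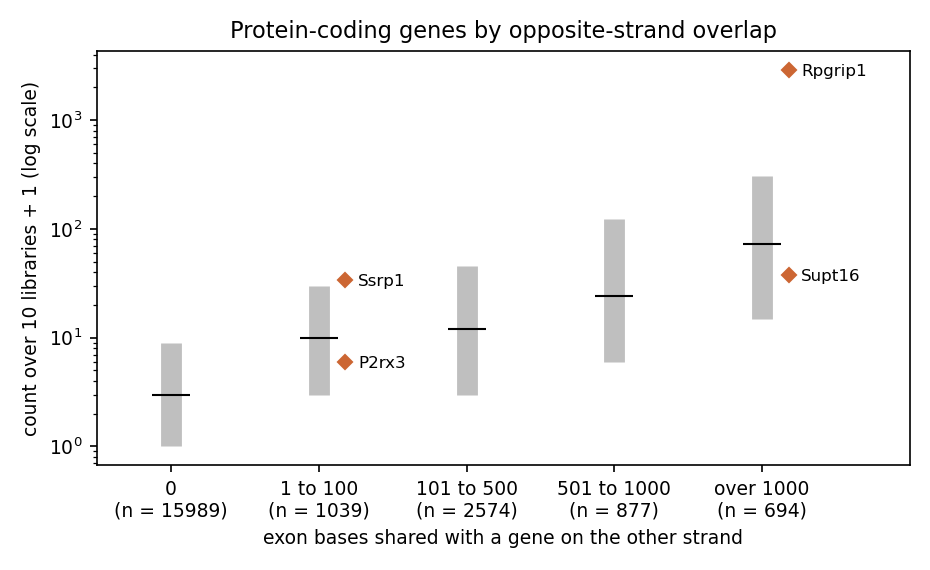
Count over 10 libraries plus 1 (log scale) of protein-coding genes by the number of exon bases shared with a gene on the other strand, with the median (black line), the interquartile range (grey) and 4 genes marked (orange). The median count went from 2 to 72 between the first and the last class, with Ssrp1 and P2rx3 in the class of 1 to 100 bases and Supt16 and Rpgrip1 in the class over 1000.

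Within 50 kb of Supt16, on its start side, lies a further pair on opposite strands. Over all libraries the antisense RNA gene Gm26590 had 531 counts, and Chd8, a chromatin remodeller whose exons share 953 bases with it, had 153. Of the Chd8 counts 98 came from the treated p53-/- library, the deepest, and without it the totals were 386 and 55. As a share, Chd8 was also high there, at 182 CPM against 46.4 CPM in the untreated p53-/- MEF, with 1 library each. Elsewhere Chd8 had 21.9 to 59.8 CPM, apart from 181 CPM on 3 counts in vehicle lung replicate 2. The cause was not tested. Gm26590 was above Chd8 in 9 of 10 libraries, the exception being vehicle lung replicate 2 with 1 against 3. The edgeR fits that tested these genes and 4930443O20Rik called none of them. Near Ssrp1, the noncoding gene 4930443O20Rik had 103 counts, Tnks1bp1 had 12 and Slc43a3 had 7, and Prg2 and Prg3, which encode eosinophil granule proteins, had 0. Snord8, inside Chd8, also had 0.

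The FACT subunits, with 33 and 37 counts, were above the median of 33 genes of related function (transcription elongation partners of FACT, its kinase, other histone chaperones and Trp53). The list had a median of 21 counts per gene, against 1 over all genes, with 2 genes at 0 (Supt4a and Leo1) and 6 at 100 or more. Those 6 were Rbbp4 (958), which encodes a histone-binding subunit of the chromatin assembly factor CAF-1, Nasp (306, a histone H1 and H3 chaperone), Asf1a (217, an H3-H4 chaperone), Supt6 (153, an elongation factor), and the nucleolar chaperones Ncl and Npm1 (130 each). Of 8 list genes with an opposite gene in the files, the opposite gene had more counts in 6. Among these were Cdc73 with 5 against 636 for B3galt2 and Chaf1a with 65 against 975 for Ubxn6. Supt6 was close, with 153 against 158 for Sdf2, and Rbbp4 (958) was set against Sync and Gm26722 summed (2177). The same share over all genes with an opposite gene was not computed, so this count cannot be called particular to the list.

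With CBL0137, edgeR called 0 of the 3 list genes tested in wild-type MEF (8.48% of all tested genes) and 0 of 6 in lung (0%), and 0 of 8 in the genotype (0.1%) and tissue (0.276%) interactions. Npm1 had 21 and 37 counts in untreated and 0 and 13 in CBL0137 wild-type MEF, which did not overlap (log2 fold change -2.37, SE 0.66, edgeR adjusted p 0.0817). The share of all genes that do not overlap between these groups was not computed. Npm1 passed the threshold as lower with all reads as library size (edgeR adjusted p 0.0245), without the filter (edgeR adjusted p 0.0079) and with all 10 libraries in one fit (edgeR adjusted p 0.0309). It did not pass with upper quartile scaling (edgeR adjusted p 0.0775), no scaling (edgeR adjusted p 0.0819) or DESeq2 (adjusted p 0.144). The log2 fold change was -2.65 and -2.22 without untreated replicates 1 and 2, and -1.99 without treated replicate 1. Without treated replicate 2 the only treated value was 0, so no fold is given.

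Between vehicle lung and untreated wild-type MEF edgeR called 3 of 5 list genes, where 38.2% of all tested genes were called. Rbbp4 had 78 and 120 counts in wild-type MEF and 30 and 0 in lung (log2 fold change -2.21, SE 0.36, edgeR adjusted p 1.4e-05). Npm1 had 21 and 37 counts against 12 and 0 (log2 fold change -1.74, SE 0.55, edgeR adjusted p 0.0123). Asf1a had 6 and 14 counts against 32 and 3 (log2 fold change 1.35, SE 0.52, edgeR adjusted p 0.0418). DESeq2 gave log2 fold changes of -2.71, -2.03 and 1.35 for these genes and called none, with adjusted p of 0.0914, 0.228 and 0.404, and leaving out any 1 library ended the call of Asf1a. The call of Asf1a was also lost without the filter (edgeR adjusted p 0.464) and with all 10 libraries in one fit (edgeR adjusted p 0.211), and that of Npm1 with all reads as library size (edgeR adjusted p 0.0528) and without the filter (edgeR adjusted p 0.0691). The call of Npm1 was further lost without untreated wild-type MEF replicate 2 (edgeR adjusted p 0.103) or vehicle lung replicate 1 (edgeR adjusted p 0.146). Without vehicle lung replicate 1 the only lung value of Rbbp4 and of Npm1 was the 0 of the shallow library, so no fold is given there, and the edgeR adjusted p of Rbbp4 was 0.041.

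Within the P2X family, P2rx3 was among the genes with the fewest counts. Per kb of exon the family had 20.9 counts for P2rx5, 9.68 for P2rx4, a receptor of macrophages and many other cells, 3.81 for P2rx1, 3.75 for P2rx6, 1.94 for P2rx2, 1.79 for P2rx3 and 0.67 for P2rx7. These values pool the tissues. In lung P2rx4 had 6.41 counts per kb and P2rx5 5.01, while in MEF P2rx5 had 15.9 and P2rx4 3.27. P2rx3 had 0.717 in lung and 1.08 in MEF. These summed counts are not scaled to depth, which was 642278 gene counts in lung and 1382112 in MEF. They can be compared between genes of a tissue and not between tissues. As a share of gene counts, P2rx3 had 3.11 CPM in lung (2 counts) and 2.17 CPM in MEF (3 counts), too few to rank the tissues. The P2rx2 and P2rx3 totals were both 5 counts and cannot be ranked. P2rx6 shares 554 exon bases with Slc7a4 on the other strand.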

How the data were processed

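The authors deposited 1 file of raw counts per library, the whole number of reads per gene without normalization. Total RNA was made into libraries with a TruSeq stranded kit after ribosomal RNA removal. The submitters' processing notes name TopHat2 2.0.9, HTSeq and the GRCm38 (mm10) build. Neither the strand setting nor the annotation release is given in the sources used here. Reads assigned to no gene (98.8% to 99.2%) stayed out of library sizes and tests. Of the gene identifiers, 94.91% were in GENCODE M21, which gave symbols, exons and coordinates.

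The quasi-likelihood test of edgeR 4.0.16 (R 4.3.3) was run on them after TMM scaling. Genes were kept by filterByExpr (minimum count 10, minimum total 15), p-values were adjusted over all kept genes by Benjamini-Hochberg, and the threshold was 0.05. Single values were tested by exact two-sided permutation over libraries (72 arrangements within strata, 70 between tissues). Shares have 95% Wilson intervals, shares of a pair exact Clopper-Pearson ones and ratios exact ones. All cover counting error only. The edgeR fits other than the interactions were tested on simulated data. Changes were placed only in genes with higher counts than the members, so that test does not cover the members. Python 3.11.15, pandas 2.3.3 and SciPy 1.17.1 made the tables.

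The genes named are the members, genes overlapping them on the other strand or within 50 kb, the chaperone-list genes past the threshold or with the most counts (Ncl and Npm1 tied for the last place), P2rx1 to P2rx7, and the genes most correlated with a member of at least 50 counts, which no member reached. Others were added after their values were seen. The members and lists were chosen with earlier results of these data known. The study calls its replicates biological, and the labels give 2 mice per lung group. No replicate pair had identical counts. Alternatives were DESeq2 1.42.0, other library sizes, no filter, all libraries in one fit, other pseudocounts and each replicate left out. The scaled pseudocount, the plain shares, the permutation tests of Rpgrip1, the Chd8 total without the deepest library and the P2X levels by tissue were added after the data were seen.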

Additional observations from a re-analysis of the deposited data

How the results depend on the processing

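No paired analysis was possible because the labels give no replicate numbers that link groups. A limit on Ssrp1, Supt16 and P2rx3 is the low number of counts. The members had 33, 37 and 5 in all, and none passed the filter. Another limit is that the strand setting of the counting is not given in the sources used here. Whether the counts on these genes came from their own strand was not tested. Only 0.789% to 1.16% of the reads of a library were assigned to a gene, and why was not tested. The cause of the changes below was not tested.

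The count of genes called went from 149 to 57 with DESeq2 in wild-type MEF, from 0 to 3 in lung with all 10 libraries in one fit, from 8 to 13 in the tissue interaction with the same fit, and from 707 to 307 between tissues with DESeq2. In the genotype interaction it went from 3 to 1 (DESeq2), 6 (no scaling and all reads as library size) and 19 (no filter). With 1 library left out it ranged from 0 to 254 in wild-type MEF (2 and 0 without untreated replicates 1 and 2, 254 without treated replicate 1), 2 to 113 in lung (113 without CBL0137 replicate 2), 0 to 222 and 3 to 27 in the genotype and tissue interactions, and 87 (without vehicle lung replicate 1) to 661 between tissues. An arm left with 1 library was assumed to vary like the others. With all reads as library size the higher share of calls in wild-type MEF was 64.1% against 49.7%, and the median gene moved to 0.21 on the log2 scale.

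With all reads as library size, Rpgrip1 reversed to -0.080 in the tissue interaction (adjusted p 1.00) and to 0.29 in the log2 ratio of p53-/- MEF (-0.13 on gene counts), and between tissues it was -0.66, against -1.22 without the filter. Its change over strata was -0.19 with all reads (exact permutation p = 0.417) and -0.17 with TMM (exact permutation p = 0.389), and its tissue difference was -5.31 per 1000000 reads with all reads (exact permutation p = 0.0571). With 1 library left out, Rpgrip1 ranged from -0.66 to -0.48 with CBL0137 in wild-type MEF, from -0.45 to 0.020 in lung (above 0 without CBL0137 lung replicate 1), from -1.15 to -0.97 between tissues, from -0.43 to -0.22 over strata and from -752 to -568 CPM in the tissue difference. The exact permutation p of Rpgrip1 over strata was 0.0556 or 0.0833 without either vehicle lung or without CBL0137 lung replicate 1. Leaving out either p53-/- library took p53-/- MEF out of the test. The change was then -0.42, with an exact permutation p of 0.0556, the smallest that the remaining 36 arrangements allow. For the tissue difference of Rpgrip1 the exact permutation p was 0.0571 without vehicle lung replicate 1 or either CBL0137 lung.

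With 1 library left out, Ssrp1 ranged from -1.60 (without untreated wild-type MEF replicate 2, exact permutation p = 0.0278) to -0.82 over strata, and P2rx3 from -1.81 to 0.17 (0.17 without either p53-/- library). In CPM between tissues Ssrp1 ranged from -4.93 (without vehicle lung replicate 1) to 12.5, and P2rx3 from -0.91 (without CBL0137 lung replicate 1) to 2.77. Supt16 kept its direction in all alternatives run.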
